A study of Homo sapiens with 6 samples.

Results

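Retinoid uptake, conversion and receptor genes were examined as a set of 9: STRA6, CRABP2, RDH10, RDH11, DHRS3, RARA, RARB, RARG and RXRA. They were read by symbol from a table of 26485 gene rows, and all 9 were found. They were selected on the readout: STRA6 was chosen by its lack of counts in 1 of the 2 clones compared and the others as genes of the same pathway whose counts were known, so for these 9 genes the comparison of clones is a description and carries no test. The next lowest of the 9 genes in that clone, RARB, had 38 to 72 counts per library.

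The libraries came from HuCCT1, an established human line from a cancer of the bile ducts, edited with CRISPR/Cas9 and grown in serum-containing DMEM-F12, with no added retinoid named in the labels. Polyadenylated RNA was sequenced in 3 libraries (a, b and c) of clone 1, labelled wild type for the water channel gene AQP1, and in 3 of clone 22, labelled AQP1 knockout. Each genotype is 1 clone, so genotype and clone cannot be told apart. Nothing in the labels says that the letters are separate cultures, so the spread between libraries may be technical. Library totals were 36925338 to 41724447 counts. AQP1 had 20 counts summed over the wild-type libraries and 24 over the knockout libraries, too few to check the genotype labels. Levels are in CPM, counts per 1000000 counts of the library, as mean ± SD with n = 3 libraries per clone, and every fold change is knockout over wild type. Plain folds are ratios of CPM, while log2 fold changes are edgeR estimates scaled by TMM factors, so they differ slightly. Values of single libraries are listed in the order a, b, c.

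Retinol (vitamin A) circulates bound to RBP4 and can enter cells through the receptor STRA6. Inside the cell, retinol dehydrogenases such as RDH10 oxidize retinol to retinal, while DHRS3 reduces retinal back to retinol. RDH11 is both a retinal reductase and a retinol dehydrogenase. Aldehyde dehydrogenases of the ALDH1A family turn retinal into retinoic acid, CRABP2 carries retinoic acid to the nucleus, and CYP26 enzymes degrade it. Retinoic acid binds the receptors RARA, RARB and RARG, which pair with RXR receptors such as RXRA on paired hexamers of DNA and raise or lower transcription of target genes. RARB, CYP26A1, DHRS3, STRA6 and CRABP2 are all known to be induced by retinoic acid in some cells. In the liver, most retinol is stored as esters in hepatic stellate cells.

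Promoter windows show where such paired hexamers lie at these genes. Windows of 300 bases, from 250 before to 50 after a RefSeq gene start (GRCh38.p14), were at hand for 8 of the 9 genes, with 20 starts in all. RDH10 had no entry. The search was for direct repeats of the hexamer AGGTCA, its variant GGGTCA, the looser form AGTTCA or the other such form GGTTCA with a spacer of 1, 2 or 5 bases, on either strand. Of the 20 windows, 1 held such a repeat, at the RARB start on the plus strand of chromosome 3. This repeat has a spacer of 5 bases, which 0.0883% of 35116 promoter windows hold (any of the 3 spacers: 0.259%). It spans 53 to 37 bases before the gene start. CYP26A1, which is not among the 9, holds one on the opposite strand, 90 to 74 bases before one of its starts. Both are shown 5′ to 3′ on the strand they lie on, because they were the only such repeats found among the 9 genes and the CRABP1, ALDH1A and CYP26 genes. Capitals mark the hexamers.
RARB: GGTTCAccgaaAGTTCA
CYP26A1: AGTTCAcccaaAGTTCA

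The RARB window (chr3:25428013-25428312, plus strand) holds that repeat and 1 further hexamer in capitals. The window of the outermost STRA6 start (chr15:74212210-74212509, minus strand) is shown because STRA6 had no counts in one clone. It holds 3 single hexamers, counting both strands (TGACCT is AGGTCA on the opposite strand), and only 3 CpG dinucleotides. The CRABP2 window (chr1:156705735-156706034, minus strand) is shown for the gene that was lowest relative to wild type.
RARB: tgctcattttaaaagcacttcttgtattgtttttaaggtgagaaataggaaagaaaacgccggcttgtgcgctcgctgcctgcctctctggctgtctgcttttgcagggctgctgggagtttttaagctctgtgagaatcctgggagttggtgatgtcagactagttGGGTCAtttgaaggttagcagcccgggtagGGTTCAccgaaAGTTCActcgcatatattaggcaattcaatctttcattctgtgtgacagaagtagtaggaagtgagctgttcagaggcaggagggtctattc
STRA6: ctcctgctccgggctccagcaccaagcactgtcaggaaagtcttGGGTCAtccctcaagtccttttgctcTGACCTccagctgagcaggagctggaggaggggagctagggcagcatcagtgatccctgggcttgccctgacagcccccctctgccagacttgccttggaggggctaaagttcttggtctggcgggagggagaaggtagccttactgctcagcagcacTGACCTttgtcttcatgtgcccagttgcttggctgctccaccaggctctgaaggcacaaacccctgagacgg
CRABP2: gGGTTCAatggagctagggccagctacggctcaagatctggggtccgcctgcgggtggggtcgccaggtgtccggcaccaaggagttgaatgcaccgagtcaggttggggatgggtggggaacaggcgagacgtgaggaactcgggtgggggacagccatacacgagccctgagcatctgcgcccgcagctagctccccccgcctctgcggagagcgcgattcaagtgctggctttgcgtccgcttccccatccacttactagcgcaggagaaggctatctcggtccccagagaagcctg

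The 5 STRA6 starts had an observed over expected CpG ratio of 0.0921 to 0.436, against a median of 0.579 over all promoter windows. The outermost DHRS3 start had a ratio of 0.990 and its other starts 0.482 and 0.216. The outermost RXRA start was above 99.7% of all windows, while its other start had a ratio of 0.255. The ratios of 0.216 and 0.255 lie within the STRA6 range. The ratio at the CRABP2 start was 0.658 and at the RARG start 0.429. The counts are per gene, so which start was used was not measured. A match is a stretch of letters and not a shown binding site, and a missing match says only that these letters are not in the window.

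STRA6, the retinol uptake receptor (chromosome 15, 74179466 to 74212259, GRCh38), had 0 counts in each of the 3 wild-type libraries. It had 302, 336 and 236 counts in the knockout clone, or 7.40, 8.21 and 6.39 CPM. No wild-type library had a count and every knockout library had more than 200. The mean in the knockout was 7.33 ± 0.913 CPM. The 0 counts of 123577645 in the wild-type clone allow a level of up to 0.0243 CPM, taking 3 counts over the group as the floor, so STRA6 was at least 303-fold higher in the knockout clone. This bound covers counting error only. STRA6 passed the filter on low counts only through the knockout libraries. CCDC33, which overlaps it in the annotation, had 0 counts in the wild-type libraries and 0, 0 and 2 in the knockout libraries.

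CRABP2, the carrier of retinoic acid (chromosome 1, 156699606 to 156705784), was lower in the knockout clone. Its levels were 164, 163 and 168 CPM in wild type. They were 33.1, 33.4 and 32.2 CPM in the knockout clone. The groups lay far apart, with a spread of a few percent within each. Mean CPM was 5.02-fold higher in wild type, and the log2 fold change was -2.38 (SE 0.031). CRABP1, its relative, had 0 counts in all 6 libraries. FABP5, another carrier, which is known to bring retinoic acid to the receptor PPARD, was at 86.3 ± 3.68 CPM beside 95.3 ± 3.84 CPM in knockout (log2 fold change 0.09, edgeR adjusted p = 0.0524). FABP5 passed under 6 of 13 alternative fits, such as library totals in place of TMM scaling (edgeR adjusted p = 0.00396), without wild-type library b (0.0209) and without knockout library c (0.0187). Per kb of exon, CRABP2 stood at 2.26 ± 0.119 times FABP5 in wild-type libraries and 0.408 ± 0.0137 times in knockout libraries. The order of these carriers was thus opposite in the 2 clones in all 6 libraries. FABP5 lies outside the rule for named genes and is given for this ratio.

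**Figure D1:**
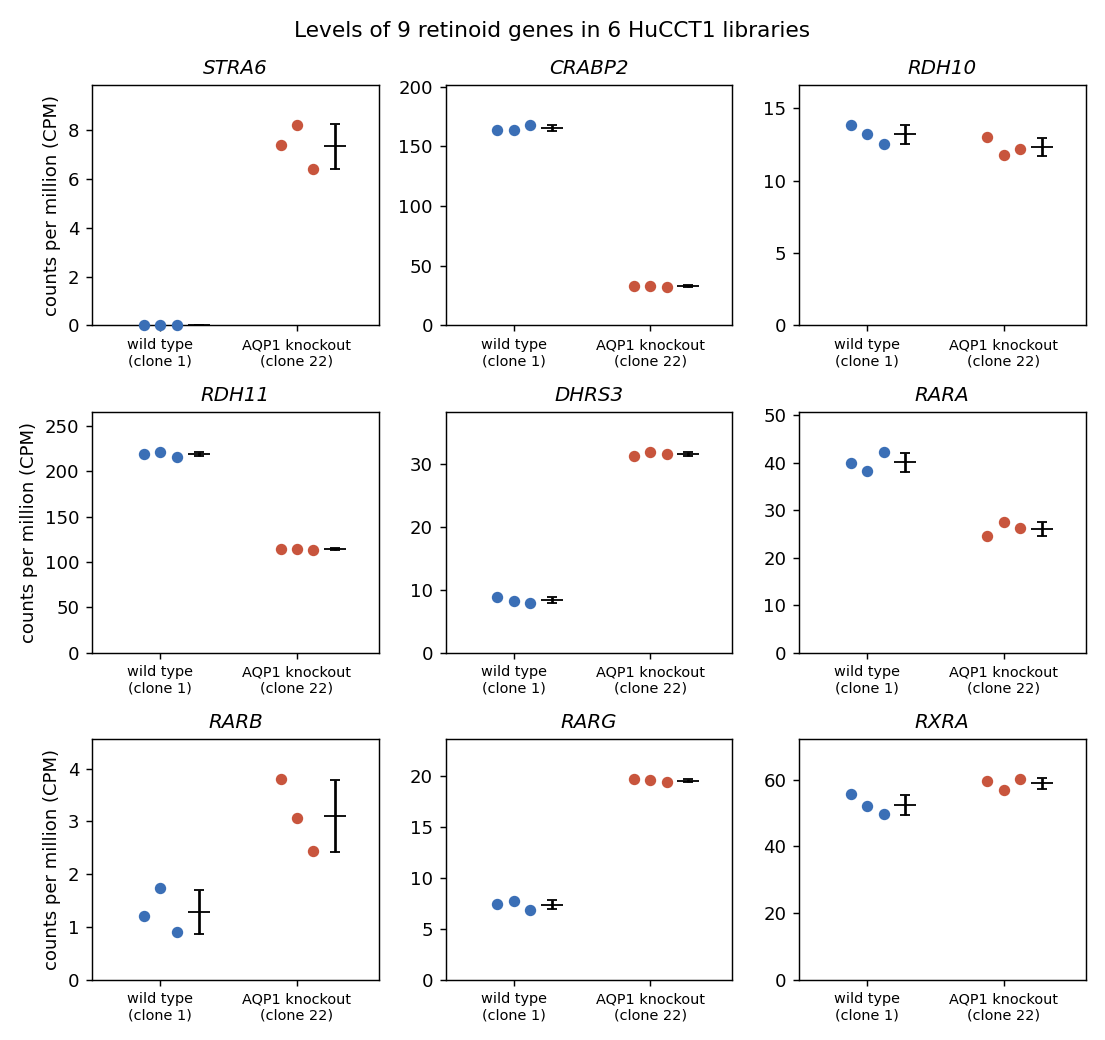
Levels of the 9 genes in CPM (vertical axes, each from 0) in the 3 wild-type (blue) and 3 knockout (red) libraries; each point is a library and the black mark is the mean with its SD. STRA6 sits at 0 in wild type, CRABP2, RDH11 and RARA are lower in the knockout, and DHRS3, RARB and RARG are higher. In CPM by library totals, only RDH10 overlaps between the clones.

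RDH10 was close between the clones and RDH11 was lower in the knockout. RDH10 (chromosome 8, 73294602 to 73325281) was at 13.8, 13.2 and 12.5 CPM in wild type and at 13.0, 11.8 and 12.2 CPM in the knockout clone. These ranges overlap, and the log2 fold change was -0.16 (SE 0.080). RDH11 (chromosome 14, 67676800 to 67695764), a broadly expressed retinal reductase and retinol dehydrogenase, was at 219, 221 and 216 CPM in wild type. It was at 115, 114 and 113 CPM in the knockout. Every knockout library was near the same level and well below every wild-type library (mean CPM 1.92-fold higher in wild type). GPHN, whose annotated span overlaps RDH11, had 1671 to 1797 counts in wild-type and 1043 to 1211 in knockout libraries. Whether reads were counted by strand is not given in the sources used here, and the part of GPHN reads in the RDH11 values was not tested.

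DHRS3, which turns retinal back into retinol (chromosome 1, 12567910 to 12618210), was higher in the knockout clone. It was at 8.81, 8.13 and 7.89 CPM in wild type and at 31.2, 31.8 and 31.5 CPM in the knockout clone. The groups did not overlap, at 8.27 ± 0.477 and 31.5 ± 0.326 CPM (3.81-fold, log2 fold change 1.87, SE 0.065). Per kb, DHRS3 stood at 1.53, 1.47 and 1.51 times RDH10 in wild type and at 5.75, 6.48 and 6.21 times in knockout. RDH11 stood at 26.5 ± 1.15 times RDH10 in wild type and 14.8 ± 0.681 times in knockout. RDH11 thus remained the most abundant of these 3 transcripts per kb in every library.

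The balance among the RAR genes differed between the clones. RARA (chromosome 17, 40309180 to 40357643) was at 39.9, 38.2 and 42.2 CPM in wild type and at 24.6, 27.5 and 26.2 CPM in the knockout clone. All knockout libraries were below all wild-type libraries (log2 fold change -0.67, SE 0.063). Its antisense neighbour RARA-AS1 had 19 to 32 counts per library. RARG (chromosome 12, 53210569 to 53232209) went the other way, from 7.45, 7.77 and 6.88 CPM in wild type to 19.7, 19.6 and 19.4 CPM in knockout. It was 2.66-fold higher in the knockout (log2 fold change 1.36, SE 0.078), again with no overlap. RARB (chromosome 3, 24829321 to 25597932), the receptor gene with the paired hexamers shown above, was the least abundant of the 3. It had 49, 72 and 38 counts in wild type and 155, 125 and 90 in the knockout clone. These are 1.29 ± 0.421 and 3.10 ± 0.680 CPM, and the lowest knockout library (2.44 CPM) was above the highest wild-type library (1.74 CPM). The SE of its log2 fold change of 1.21 was 0.266, the widest of the 8 genes that had counts in both clones. RARB overlaps TOP2B in the annotation, which had 6229 to 7326 counts per library. The part of TOP2B reads in the RARB counts was not tested.

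Within the RAR family, RARA made up 79.1 ± 2.49% of the summed CPM per kb in wild-type libraries and 48.4 ± 2.09% in knockout libraries. RARG made up 17.6 ± 1.39% in wild type and 44.1 ± 0.940% in knockout, and RARB 3.30 ± 1.13% and 7.44 ± 1.64%. In the wild-type clone RARA was the major form in every library. In the knockout clone RARA and RARG stood side by side, at 46.0 and 44.8% in library a, 49.8 and 43.0% in library b and 49.5 and 44.6% in library c. The sum of the 3 genes was 12.2 ± 0.220 CPM per kb in wild type and 12.9 ± 0.288 in knockout. These close levels did not overlap between the clones by library totals, but with the TMM factors they would overlap. These shares rest on the exon length assigned to each gene, and with other lengths the values moved by a few percentage points in the same direction in both clones.

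**Figure D2:**
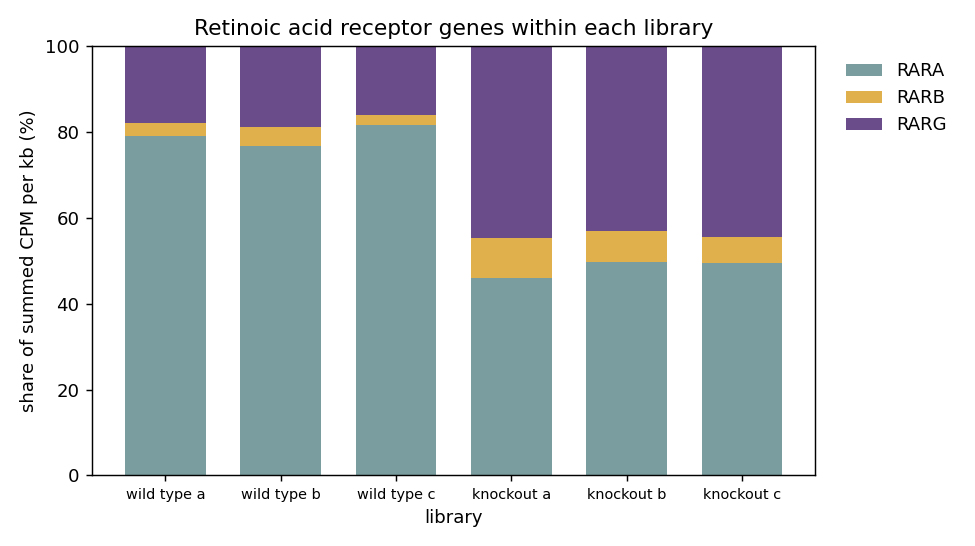
Share of RARA, RARB and RARG in the summed CPM per kb of the 3 genes (vertical axis, percent from 0 to 100) in each library (horizontal axis). RARA takes 76.6 to 81.6% in the wild-type libraries and 46.0 to 49.8% in the knockout libraries, while RARG takes 16.1 to 18.9% and 43.0 to 44.8%.

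RXRA, the partner of the RAR receptors (chromosome 9, 134326455 to 134440585), was at 55.8, 52.1 and 49.9 CPM in wild type and at 59.6, 57.1 and 60.1 CPM in the knockout clone. The groups were close but did not overlap in CPM (log2 fold change 0.11, SE 0.052). CPM uses library totals, and with the TMM factors the groups would overlap. The summed RAR level per kb was 0.429 ± 0.0293 of the RXRA level in wild type and 0.405 ± 0.0207 in knockout, and these ranges overlap. Of its relatives, RXRG had 0 counts in all 6 libraries. RXRB had 4 to 14 counts per library, but this is not taken as its level. Counts nearby in the major histocompatibility region were erratic: its neighbour RPS18, a ribosomal protein gene that every cell uses, had from 92 to 8507 counts per library, and BRD2, a broadly expressed gene, had 24 to 50. The cause was not tested.

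Per kb of exon, the order of the 9 genes in the wild-type clone was CRABP2 (150 CPM per kb), RDH11 (84.6), RXRA (28.5), RARA (9.63), DHRS3 (4.81), RDH10 (3.20), RARG (2.15), RARB (0.400) and STRA6 (0). No neighbours in that order overlapped between libraries. In the knockout clone it was RDH11 (44.1 CPM per kb), RXRA (31.9), CRABP2 (29.9), DHRS3 (18.3), RARA (6.27), RARG (5.71), RDH10 (2.98), STRA6 (1.34) and RARB (0.963). There, STRA6 and RARB overlapped. With the longest coding transcript as the length, RXRA and CRABP2 overlapped instead, and STRA6 and RARB did not. RXRA has a short model in the annotation used (1.85 kb), and with a longer one its level per kb would be lower.

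In 8 of the 9 genes the libraries of the clones did not overlap in CPM, 5 higher and 3 lower in the knockout. The same was true of 77.3% of the 14405 genes tested (41.8% higher, 35.5% lower). Both use library totals, without the TMM factors (0.980 to 0.982 in wild-type and 1.015 to 1.024 in knockout libraries). With those factors the RXRA groups would overlap, and the share over all genes was not recomputed. The 9 genes had a median log2 fold change of 0.11, and of 1.21 when sign is dropped. Over all tested genes these medians were 0.01 and 0.464. Since the 9 genes were chosen with these values known, nothing is read from that.

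To show whether chromosomal neighbours had shifted likewise, each gene was set beside the tested genes that start within 5 Mb of it. Around STRA6, 80 neighbours had a median log2 fold change of 0.50, with 61 rising and 7 falling in edgeR's test, and none was as high as STRA6. Around DHRS3 the median of 82 neighbours was -0.01 against 1.87 for the gene, and around CRABP2 the median of 148 was -0.10 against -2.38. Around RARG, 177 neighbours had a median of 0.16 against 1.36, and around RARB, 20 neighbours had one of 0.03 against 1.21. The 51 neighbours of RDH11 had a median of -0.10, and 5.88% of them were lower than RDH11. RARA was closer to its surroundings, at -0.67 beside -0.31 in 160 neighbours, of which 88 fell and 34 rose. RXRA (0.11 beside 0.00 in 130 neighbours) and RDH10 (-0.16 beside 0.21 in 22 neighbours) lay between the quartiles of their neighbours. Over all tested genes, 37.1% rose and 37.2% fell. The part of such shared shifts in the values above was not tested.

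**Figure D3:**
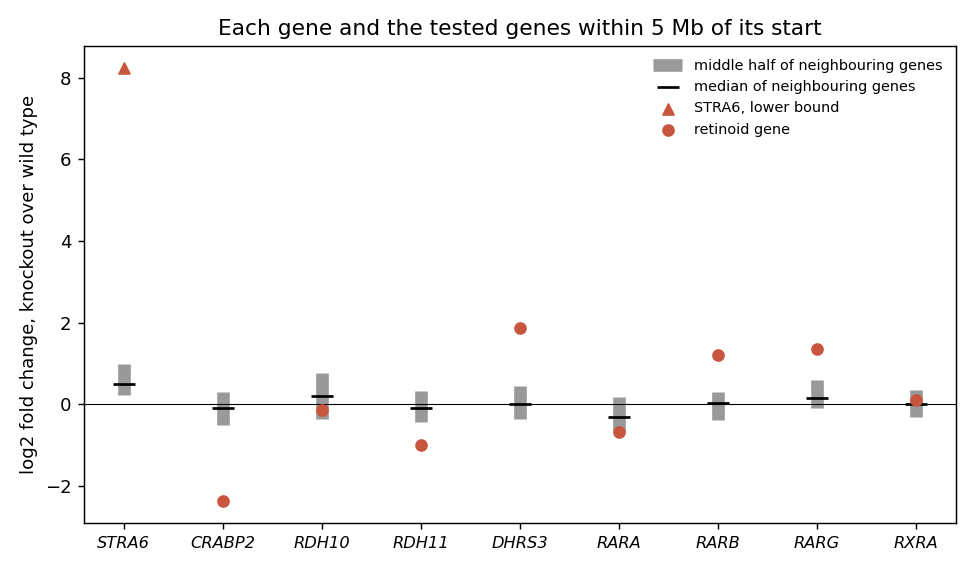
Log2 fold change, knockout over wild type (vertical axis), of each of the 9 genes (red) with the median (black line) and quartiles (ends of the grey bar) of the tested genes that start within 5 Mb of it. STRA6 is drawn at its lower bound (log2 of 303-fold, 8.25); CRABP2, RDH11, DHRS3, RARB and RARG lie outside the grey bars, RDH10 and RXRA inside, and RARA just below its bar (-0.67 against -0.65).

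The rest of the retinoid pathway was read from a list of 49 further genes. Of these, 22 had enough counts to be tested, and 8 rose, 7 fell and 7 did not pass. Of the 22, 4 passed the filter on low counts through the knockout libraries alone, including 2 of the 8 that rose. The called share was 68.2%, beside 74.4% of all tested genes (37.1% higher, 37.2% lower), with a median log2 fold change of 0.06 beside 0.01. The genes were not called more often than genes at large, and the values of single genes carry the description.

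CYP26B1, an enzyme that degrades retinoic acid, rose the most. It was at 0.567, 0.629 and 0.455 CPM in wild type and at 11.8, 10.6 and 10.3 CPM in the knockout clone. All knockout libraries were more than 10 CPM and no wild-type library reached 1 CPM (log2 fold change 4.25, SE 0.166, edgeR adjusted p = 3.24e-11). The other CYP26 genes were at or near 0: CYP26C1 had no count, and CYP26A1 had 5 counts in knockout library c and none elsewhere. CYP26A1 is the gene with the other paired hexamers shown above.

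The ALDH1A genes, which make retinoic acid, moved in opposite directions. ALDH1A3 rose from 106 ± 4.59 to 208 ± 3.16 CPM (log2 fold change 0.93, SE 0.032, edgeR adjusted p = 1.01e-11). ALDH1A1 fell from 3.08 ± 0.154 to 0.567 ± 0.110 CPM (-2.49 on the log2 scale, SE 0.243, edgeR adjusted p = 4.92e-07). ALDH1A2 had at most 10 counts in a library and was not tested. ALDH1A3 made up 92.9 ± 0.109% of the family per kb in wild type and 99.3 ± 0.195% in knockout.

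Genes for uptake, binding and storage moved in both directions. RBP5 rose from 0.743 ± 0.195 to 1.63 ± 0.597 CPM (edgeR adjusted p = 0.0117), a call lost with wild-type library a left out (adjusted p = 0.053) and with library c of the knockout left out (adjusted p = 0.0644). RBP4, RBP3 and RBP7 had at most 9 counts in a library and RBP2 had none. LRAT, which esterifies retinol for storage, fell from 4.77 ± 0.625 to 1.72 ± 0.187 CPM (-1.52 on the log2 scale, SE 0.181, edgeR adjusted p = 3.91e-06).

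Of 18 enzymes listed for retinol and retinal, 8 were tested, and 3 rose and 2 fell, beside 74.4% of all tested genes called. The group also holds the isomerase RPE65, so it is not only enzymes that turn retinol into retinal or back. AKR1C3, a ketosteroid and retinal reductase, rose from 2.81 ± 0.674 to 17.1 ± 1.04 CPM (log2 fold change 2.56, edgeR adjusted p = 1.45e-09). It is uncertain, since near-identical relatives can share its reads. DHRS9, a retinol dehydrogenase of epithelia, had 3 to 8 counts in wild-type and 28 to 31 in knockout libraries (log2 fold change 2.51, edgeR adjusted p = 0.000267). Its knockout counts alone took it past the filter, which favours a rise, so its adjusted p is not taken as support. RPE65, the isomerase of the visual cycle, fell from 9.07 ± 0.749 to 2.45 ± 0.108 CPM (-1.94 on the log2 scale, edgeR adjusted p = 1.08e-08). PPARD, the receptor that FABP5 serves, fell from 102 ± 3.13 to 44.4 ± 1.30 CPM (-1.26 on the log2 scale, edgeR adjusted p = 3.56e-12).

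**Figure D4:**
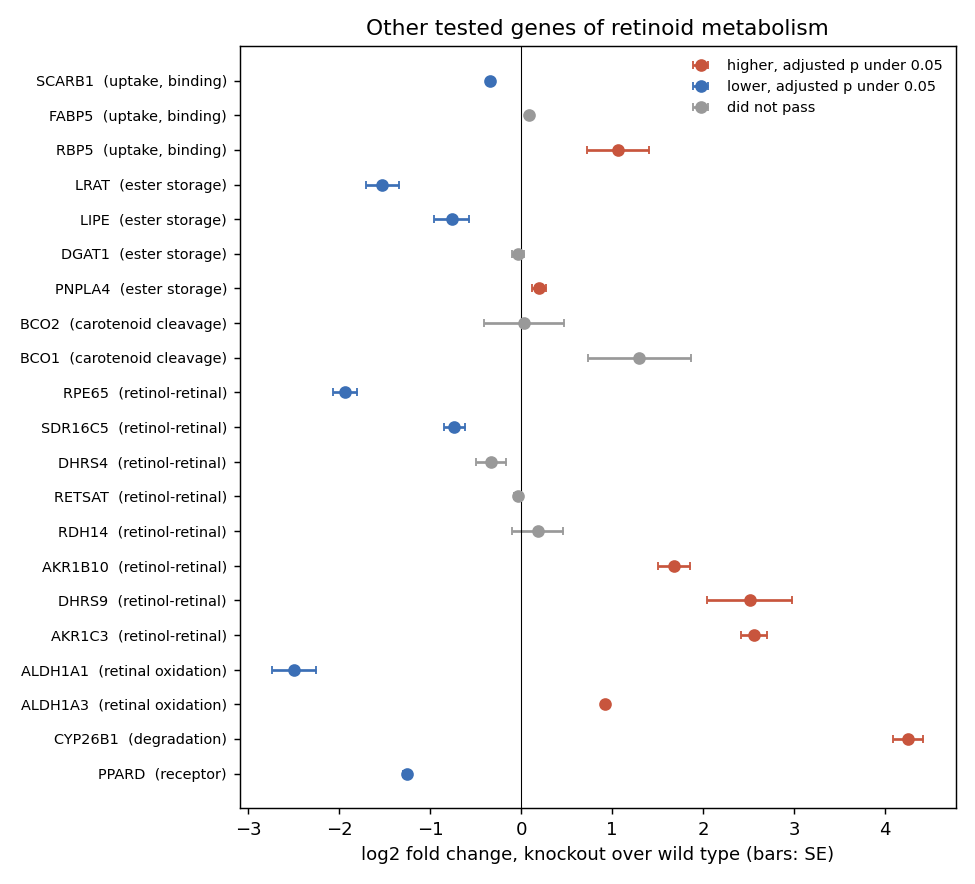
Log2 fold change, knockout over wild type (horizontal axis, bars are SE), of the tested genes on the list of other retinoid genes, ordered by role, with 1 of the 22 not drawn. Rises (red) and falls (blue, 7 genes) are mixed within most roles; CYP26B1 (4.25) is at the right end and ALDH1A1 (-2.49) at the left.

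Genes known to respond to retinoic acid in other cells moved in both directions. Of 32 such genes outside the 9, 20 were tested, and 8 rose, 8 fell and 4 did not pass, beside 74.4% of all tested genes called. The median log2 fold change was 0.18. MEIS2, a homeobox gene, rose from 16.4 ± 0.285 to 44.4 ± 0.390 CPM (log2 fold change 1.38, adjusted p = 3.15e-11 by edgeR). RARRES1, a retinoid-induced membrane protein gene, rose from 1.12 ± 0.348 to 4.37 ± 0.412 CPM (log2 fold change 1.90, edgeR adjusted p = 5.09e-06). TNFAIP2 rose from 33.7 ± 0.220 to 94.5 ± 7.75 CPM (log2 fold change 1.43).

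The other RARRES genes went down while RARRES1 went up. RARRES2, which encodes the adipokine chemerin, fell from 4.37 ± 0.493 to 0.747 ± 0.0913 CPM (-2.59 on the log2 scale, edgeR adjusted p = 7.22e-08). RARRES3, a phospholipase gene now called PLAAT4, fell from 16.3 ± 0.882 to 6.54 ± 0.817 CPM (-1.37 on the log2 scale, edgeR adjusted p = 2.89e-08). GPRC5A, an orphan receptor gene first found by its induction with retinoic acid, fell from 1541 ± 33.6 to 455 ± 1.94 CPM (-1.81 on the log2 scale, edgeR adjusted p = 1.12e-15). CD38, a surface enzyme gene, fell from 0.605 ± 0.203 to 0.0705 ± 0.0834 CPM (-3.15 on the log2 scale, edgeR adjusted p = 0.000929). CD38 passed the filter only through the wild-type libraries, which favours a fall, so its adjusted p is not taken as support.

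Coregulators that sit on RAR and RXR also moved in both directions. Of 16 listed, 15 were tested, and 6 rose, 5 fell and 4 did not pass (73.3% called, beside 74.4% of all tested genes), with a median of 0.04. With library totals in place of TMM scaling, 9 rose and 4 fell. The acetyltransferase gene KAT2B rose from 10.3 ± 1.45 to 31.6 ± 1.80 CPM (log2 fold change 1.57, edgeR adjusted p = 1.64e-09). No other called coregulator changed by 2-fold or more, a size reached by 23.4% of all tested genes. The coactivator gene NCOA1 rose from 24.3 ± 0.585 to 47.3 ± 1.17 CPM and NCOA2 from 33.9 ± 1.69 to 48.3 ± 4.06 CPM. HDAC3, the deacetylase of the NCOR corepressor complex, rose from 41.6 ± 0.747 to 81.0 ± 1.67 CPM. TBL1XR1 and TBL1X, subunits of the same complex, fell by 0.68 and 0.24 on the log2 scale. The coactivator genes TRIM24 and MED1 fell by 0.45 and 0.34 on that scale.

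Markers of cell identity moved with the same groups. All 6 biliary epithelial markers fell (edgeR), beside 37.2% of all tested genes that fell and 37.1% that rose, and their summed level was 3303 to 3369 CPM in wild-type and 1820 to 1851 CPM in knockout libraries. Of 8 markers of stellate cells and fibroblasts, 4 rose, 1 (LRAT) fell, 1 did not pass and 2 were too low to test. Of the 4, DCN and DES reached the test by their knockout counts alone, which favours a rise, so their calls are not taken as support. Their summed level was 19.0 to 22.6 CPM in wild type and 30.4 to 35.0 CPM in knockout. Among them COL1A2 had 0 counts in the knockout libraries, and DES, a stellate cell filament gene, had 0 counts in wild-type libraries and 29 to 31 in knockout libraries. Of 6 hepatocyte markers 1 was tested and rose (SERPINA1); CYP3A4 had 0 counts and ALB 6 in all libraries together. The summed hepatocyte level was 52.2 to 55.8 CPM in wild type and 68.7 to 74.7 CPM in knockout. Nearly all of it was SERPINA1 (means of 53.5 and 70.9 CPM). Of 4 immune markers, CD68 and CD14 rose while PTPRC had 0 counts in all 6 libraries. The sums were 107 to 113 CPM in wild type and 204 to 211 CPM in knockout, nearly all of it CD68 (means of 109 and 207 CPM). Neither of the 2 tested endothelial markers of 4 passed, with sums of 1.70 to 2.12 CPM in wild type and 1.91 to 2.89 CPM in knockout. Each group is 1 cultured clone, and in its bulk RNA a shift in the share of cells and in RNA per cell cannot be told apart. The part of these markers in the retinoid values was not tested.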

How the data were processed

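The authors deposited 1 table of raw read counts per gene symbol for the 6 libraries, in whole numbers with no normalization. The build was hg38 and the tools were HISAT2, edgeR, FastQC and Trimmomatic 0.33, per the submitters' processing notes. How reads were counted, by strand or not and on which annotation, is not given in the sources used here. The kit was a stranded TruSeq kit for mRNA, per the labels' protocols.

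Counts of all rows were fitted in R 4.3.3 with edgeR 4.0.16, using TMM factors (0.98 to 1.02) after filterByExpr, the quasi-likelihood test of the clones and Benjamini-Hochberg (BH) adjustment over the 14405 genes tested, threshold 0.05. SE is taken from the fold change and the test's F value. CPM uses library totals. The 9 members and the gene lists were chosen with earlier results of these data known. No p is given for the members. The fit was tested on simulated data. Replicates differed by more than counting noise in every pair within a group (chi-square per degree of freedom 4.18 to 7.6).

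Genes named from the lists are, per list, the 4 that rose most and the 4 that fell most, and every ALDH1A, CYP26, RBP, CRABP and RXR gene. Of these, 2 genes are not reported here but stay in the counts. A gene named beyond these was chosen after its values were seen, apart from listed markers and genes that overlap or neighbour a member. Coordinates and promoter sequences come from RefSeq on GRCh38.p14, the same assembly as hg38, by symbol. Exon lengths are the union of exons in GENCODE 29 (basic set). Alternatives were RLE factors, library totals, no filter, at least 1 CPM in 3 libraries, limma-voom (limma 3.58.1), DESeq2 1.42.0, each library left out, a replicate block by letter, an adjusted p of 0.01, other lengths and a 2 Mb window.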

Additional observations from a re-analysis of the deposited data

How the results depend on the processing

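Each member kept the direction of its fold change under all 13 alternative fits, over which RARB ranged from 1.01 to 1.49 and CRABP2 from -2.39 to -2.33 on the log2 scale. Of 335 values of 26 named genes outside the members under these fits, 332 stayed on the same side of the threshold, 3 lost it, 0 gained it and 0 turned direction. All 26 had passed in the main fit, most of them picked for a large change, so none could gain it. Among list genes outside the 26, FABP5, BCO1, MEIS1, NCOR1, CREBBP and CARM1 gained it under some fits. PNPLA4 and EP300 lost it under some. The count of genes called was 10326 to 10607 with 1 library left out and 10710 with DESeq2, against 10711. With 1 library left out, the counts called were 14 to 17 of the other retinoid genes, 16 to 17 of the retinoic acid responsive genes and 10 to 11 of the coregulators. With the letters as a replicate block, 10599 genes were called, with 16 other retinoid genes, 16 responsive genes and 11 coregulators. Same-lettered libraries did not deviate together (correlations -0.0195 to 0.0577), so the letters are not taken to pair the libraries.

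Library totals in place of TMM moved the median of neighbours to 0.56 for STRA6, -0.043 for CRABP2, 0.26 for RDH10, -0.041 for RDH11, 0.047 for DHRS3, -0.26 for RARA, 0.083 for RARB, 0.21 for RARG and 0.056 for RXRA, following a shift of the median of all tested genes from 0.01 to 0.06. Within 2 Mb, the medians were -0.15 for CRABP2, 0.072 for RDH10, -0.20 for RDH11, -0.063 for DHRS3, -0.39 for RARB (10 genes), 0.21 for RARG and 0.079 for RXRA; these windows hold fewer genes. Without lengths, RARA took 82.2% of RAR counts in wild type and 53.5% in knockout, and RARG 15.1% and 40.2%. With the longest coding transcript, chosen after seeing the data, RARA took 81.9% and 52.9%, and RARG 15.5% and 40.9%. Genes with under 100 counts in a library, such as RARB and RBP5, are limited by depth.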

Other observations

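STRA6 was 1 of 1608 genes with 0 counts in all wild-type libraries and a count in the knockout clone, of which 117 were tested. It ranked as number 6 among them by mean knockout CPM. The 3 such genes with the nearest mean of log2(CPM + 0.1) over the 3 knockout libraries were MXRA5 on the X chromosome (320, 311 and 256 counts), TAS1R1 on chromosome 1 (262, 248 and 287) and ARMCX1 on the X chromosome (252, 304 and 204). Their distances from STRA6 on that scale were 0.03, 0.12 and 0.20.

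The repeat with a spacer of 5 bases found at RARB lies in promoter windows of 29 genes, of which 18 are in the table and 9 were tested. Of the 8 other than RARB, 0 rose, 7 fell and 1 did not pass in edgeR's test, beside 37.1% higher and 37.2% lower over all tested genes. The median of the 8 was -0.40 on the log2 scale. BATF2 (-1.61) and FSCN2 (-1.53) were the lowest, and COL24A1 (0.83) did not pass. These genes were picked by sequence alone, and 8 genes from 1 pair of clones are a description.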
